A study of Mus musculus with 6 samples.

Results

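The 43 genes described here are the tumour suppressor p53 and its inhibitors, p53 target genes, and the BCL2 family with the apoptosome and the inhibitors of apoptosis proteins (IAPs) that act after it. The members are the array probes, other than controls, whose accession maps to 1 of 43 listed mouse gene symbols. Of these genes, 42 had a probe, out of 20659 genes with a probe in all, and 53 probes measured them. Bcl2a1a, a survival protein of the BCL2 family, matched no probe and is not analysed here. A feature is a gene, read by 1 probe, or a probe that matched no gene. The test took features well above background on 3 or more of the 6 arrays, which left 39 members and 18442 features in all.

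RNA came from B16-F1 and D5.1G4, 2 melanoma lines of the mouse, and each was measured on 3 one-colour microarrays. Cells of both lines were untreated, with no agent that damages DNA or induces apoptosis in the labels. From 1000000 seeded cells they reached a confluence of 75% to 95% over 24 h, in RPMI-1640 supplemented with fetal bovine serum at 10%. The labels name no separate cultures for the replicates and no transgene or engineered allele in either line, so p-values reflect only how these 6 samples spread, and that spread may be technical.

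The transcription factor p53 is made all the time and destroyed nearly as fast: MDM2 marks it for degradation and MDM4 (also called MDMX) blocks its activity. When DNA is damaged or cells are stressed, p53 accumulates and switches on genes for cell cycle arrest, DNA repair and cell death, and MDM2 itself. Death by the mitochondrial route is decided by the BCL2 family: survival proteins restrain the pore-forming effectors BAX and BAK, BH3-only proteins counter the survival proteins, and cytochrome c released through the pores assembles APAF1 and caspase-9 into the apoptosome. IAPs restrain the caspases. In melanoma, p53 itself is seldom mutated, and MDM4 and the survival proteins are well studied.

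Sequence upstream of the members was read from RefSeq promoter windows on GRCm38.p6, 250 bases before to 50 after a transcript start. It is shown because p53 acts through a DNA motif that pairs a 10-base half-site with a second copy. Of the 43 members, 35 had a window, and 11 of these (31.4%) held the consensus p53 half-site, which reads the same on both strands, against 9.55% of 27025 genes with a window. By promoter window, since a gene can have several, it was 24.0% of 50 against 8.36% of 32851. By gene, the share was 46.2% for 13 members listed as p53 targets and 22.7% for the other 22. The other 22 are not all non-targets: they include Mdm2, Bax and Bbc3, p53 targets that are listed under another role. No member held a full site, of 2 half-sites with at most 13 bases between them, and 0.074% of all genes did. Half-sites lay fully before a start in Trp53, Mdm2, Ccng1, Sesn1, Aen, Bax, Gadd45a, Polk, Ei24 and Bmf, and after a start in Birc2. Of these 11 genes, Aen and Gadd45a were called different between the lines, which is 22.2% of the 9 called members with a window. A match is a description of these letters and does not show binding. Below, 30 bases are printed for 6 of them, 5′ to 3′ on the gene's strand, with the half-site in capitals and 10 bases on each side. Trp53 is at chr11:69580274-69580303 (plus strand), Mdm2 at chr10:117710925-117710954 (minus), Ccng1 at chr11:40755452-40755481 (minus), Sesn1 at chr10:41887256-41887285 (plus), Aen at chr7:78895927-78895956 (plus) and Bax at chr7:45467080-45467109 (minus). The half-site begins 75 bases before the start in Trp53, 186 in Mdm2, 185 in Ccng1, 173 in Sesn1, 121 in Aen and 201 in Bax. Aen and Sesn1 each have another start. The same Aen site begins 10 bases after the other Aen start and is counted in both windows, and the other Sesn1 window holds no half-site.
Trp53: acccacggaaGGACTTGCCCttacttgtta
Mdm2: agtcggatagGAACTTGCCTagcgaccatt
Ccng1: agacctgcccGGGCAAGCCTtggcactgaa
Sesn1: cttggccttcAAGCTTGTTTttgctggcct
Aen: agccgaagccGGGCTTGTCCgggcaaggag
Bax: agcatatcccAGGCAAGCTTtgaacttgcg

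Levels are log2 of the spot signal minus the 75th percentile of its array, and they compare arrays for 1 probe, not 1 gene with another. Differences are B16-F1 minus D5.1G4 from limma, with Benjamini-Hochberg adjustment over all features tested. A gene is called where its adjusted p is at most 0.05 and its difference at least 2-fold, and "rose" and "fell" are used for called genes. Of the 39 tested members, 10 (25.6%) passed the call, of which 4 were higher and 6 lower in B16-F1. Across all tested features 15.2% passed, 6.28% on the higher side and 8.89% on the lower. By adjusted p alone 19 members passed (48.7%, 8 higher and 11 lower), against 34.9% of all features. The median difference was 0.012 over the members and -0.0042 over all features. Of the 35 members measured on all 6 arrays, 23 had no overlap between the lines (65.7%), against 50.7% of all features. With genes well above background on all 6 arrays alone, 9 of 34 members passed, against 13.6% of features, and Bcl2l11 was not among those tested. Perp, Xiap, Sfn and Mdm4 rose, and Bcl2l11, Gadd45b, Gadd45g, Aen, Gadd45a and Btg2 fell.

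**Figure D1:**
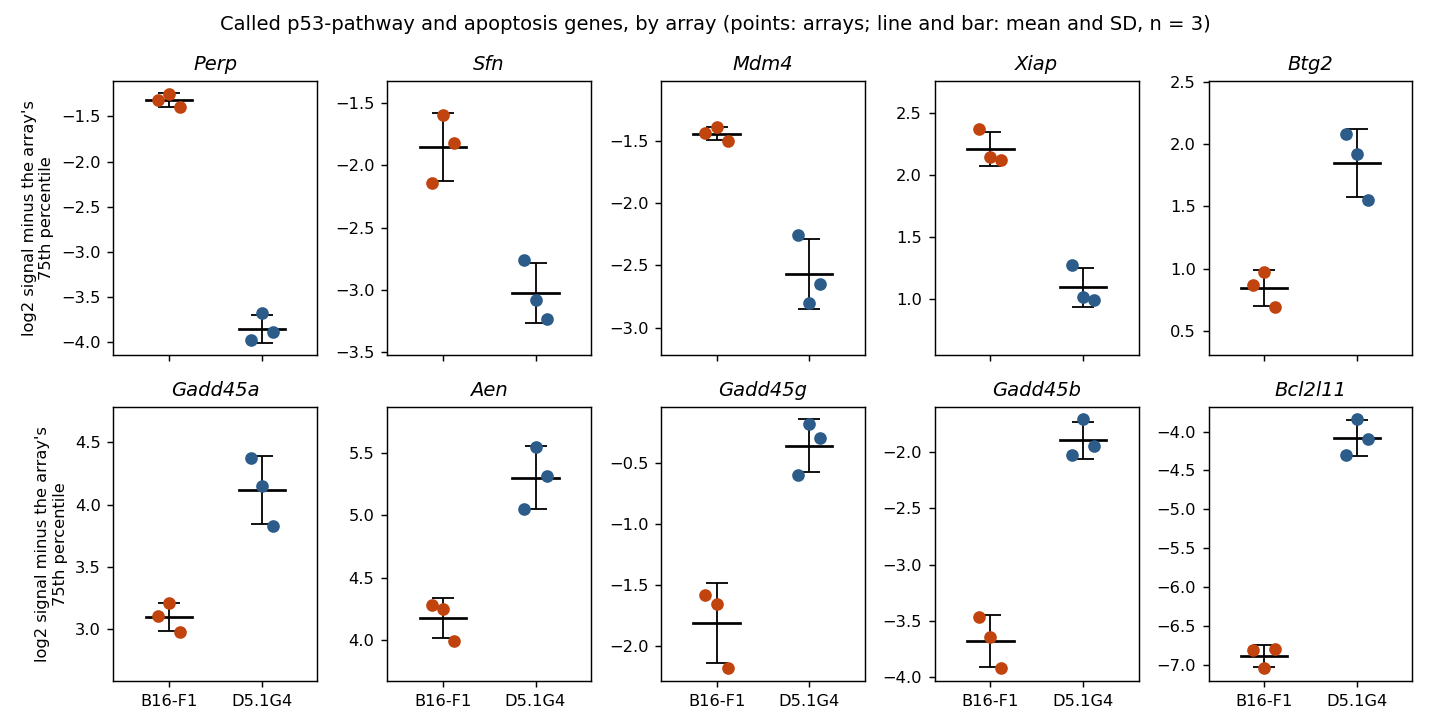
Level of each of the 10 called members on every array, in log2 of the signal minus the array's 75th percentile, with B16-F1 left of D5.1G4; points are arrays and bars the mean of 3. No B16-F1 array overlaps a D5.1G4 array in any panel, but the genes were picked for their difference, so this is no added support. The B16-F1 points of Bcl2l11 are not well above background and give only an upper bound.

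Spots well above background made up 62.0% and 61.7% on B16-F1 replicates 2 and 3, but 54.4% on B16-F1 replicate 1. On D5.1G4 arrays they made up 53.4% to 53.9%. B16-F1 replicates 2 and 3 share a scan time (scan 1), B16-F1 replicate 1 shares one with D5.1G4 replicates 2 and 3 (scan 2), and D5.1G4 replicate 1 has its own (scan 3), so only scan 2 holds both lines. Within scan 2, and without scan 1, B16-F1 has 1 array, which is assumed to vary like the D5.1G4 arrays, so both settings rest on fewer arrays. All 8 melanocyte markers were well above background on every array, with summed signals of 475 to 594 times the 75th percentile in B16-F1 and 581 to 809 in D5.1G4. Leukocyte markers summed to 0.81 to 2.03 in B16-F1 and 0.88 to 1.79 in D5.1G4, with Cd3e and Itgam well above background on all 6 arrays. Endothelial markers summed to 0.67 to 1.49 in B16-F1 and 0.83 to 0.90 in D5.1G4, epithelial markers to 0.16 to 0.33 in B16-F1 and 0.22 to 0.29 in D5.1G4, and fibroblast markers to 0.023 to 0.088 in B16-F1 and 0.030 to 0.039 in D5.1G4. The part of other cells in the results was not tested. The endothelial genes Cdh5 and Tek, the epithelial genes Epcam and Krt8 and the fibroblast genes Col3a1, Dcn and Pdgfra were well above background on no array. The endothelial genes Pecam1 and Kdr and the epithelial genes Krt5 and Krt14 were well above background on all 6 arrays, and the fibroblast gene Lum on 1 B16-F1 array. A line with less of a transcript per cell and one with fewer cells making it cannot be told apart in such RNA.

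Among p53 and its inhibitors, Mdm4 rose in B16-F1, while Trp53 and Mdm2 passed the adjusted p but not the 2-fold minimum, in opposite directions. Mdm4 read -1.44, -1.39 and -1.50 in B16-F1, against -2.26, -2.80 and -2.65 in D5.1G4. The lines were apart on every array, and the difference was 1.13 (SE 0.16, 2.19-fold, adjusted p = 0.00346). A second Mdm4 probe never stood well above background. Trp53 read 0.18, 0.33 and 0.72 in B16-F1, against -0.14, -0.49 and -0.12 in D5.1G4, a difference of 0.66 (SE 0.19, adjusted p = 0.0389). With normexp background correction the Trp53 difference was also 0.66, but its adjusted p was 0.127. Mdm2, the p53 ubiquitin ligase and a p53 target, read 3.93, 3.89 and 3.59 in B16-F1, against 4.55, 4.76 and 4.53 in D5.1G4. Its difference was -0.81 (SE 0.14, adjusted p = 0.00692), and both genes carry a half-site among the sequences above. Without the 2 arrays of scan 1, which leaves 1 B16-F1 array, the Mdm4 difference was again 1.13 (adjusted p = 0.0696), and under normexp it was 0.87, short of 2-fold.

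The 19 genes listed as p53 targets that are neither inhibitors nor BCL2 proteins included 2 that rose and 5 that fell in B16-F1. That is 36.8% called, against 15.2% of all features, with a median difference of -0.09. Of the 11 listed under growth arrest and stress, 4 fell, namely Gadd45a, Gadd45b, Gadd45g and Btg2, and Sfn rose. Of the Gadd45 genes only Gadd45a held a p53 half-site in its promoter window, and regulation by p53 was not tested. GADD45 proteins are small stress-induced proteins that bind PCNA, cyclin-dependent kinase and MAP kinase partners, and BTG2 is an antiproliferative cofactor of mRNA deadenylation. In all, 9 of these 11 had a negative difference, as did 9271 of the 18442 features tested. Ccng1 (-0.09) and Zmat3 (-0.02) are among the 9, and both changed sign in other settings. Sesn1, which encodes a sestrin that restrains TORC1, is also among the 9.

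The 3 Gadd45 genes, on chromosomes 6, 10 and 13, fell together. Gadd45b read -3.46, -3.64 and -3.92 in B16-F1, against -2.03, -1.71 and -1.95 in D5.1G4. The lines stood well apart, by -1.78 (SE 0.16, 3.43-fold lower, adjusted p = 0.000667). Gadd45g read -1.58, -1.66 and -2.18 in B16-F1, against -0.60, -0.18 and -0.30 in D5.1G4. It was lower on every B16-F1 array, by -1.45 (SE 0.21, 2.72-fold lower, adjusted p = 0.00319). Gadd45a read 3.10, 3.21 and 2.98 in B16-F1, against 4.37, 4.15 and 3.83 in D5.1G4. Here too no array overlapped, but the difference of -1.02 (SE 0.17, 2.02-fold lower, adjusted p = 0.00553) lay at the fold minimum. The Gadd45a call ended in 7 of 17 other settings: when B16-F1 replicate 3 (-0.96) or D5.1G4 replicate 1 (-0.89) was left out, with quantile normalization (-0.90), on the authors' values (-0.90), with scan as a block (-0.88), within scan 2 (-0.88) and without scan 1 (-1.01, adjusted p = 0.0855). With normexp background correction the calls of Gadd45b (-0.999, adjusted p = 0.186) and Gadd45g (-1.18, adjusted p = 0.0626) ended.

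Because the 3 genes fell together, the 250 bases before their RefSeq starts on GRCm38.p6 are printed below, 5′ to 3′ on the gene's strand. Capitals mark the p53 half-site and, searched on both strands, the CCAAT box, the motif TATAAA of TATA boxes, and the palindromic E-box CACGTG. These letters were chosen after the sequences were seen. Gadd45a is at chr6:67037408-67037657 (minus strand), Gadd45b at chr10:80929841-80930090 (plus) and Gadd45g at chr13:51846425-51846674 (plus). CCAAT stood in all 3, starting 86 bases before the start in Gadd45a, 139 and 100 in Gadd45b and 78 in Gadd45g. It also stood in 33.8% of 32851 promoters. TATAAA was in Gadd45b, 46 bases before the start, and in Gadd45g, 27 before it, but not in this window of Gadd45a; 12.4% of promoters held it. CACGTG was likewise in Gadd45b, 185 before, and Gadd45g, 142 before, and in 6.02% of promoters. The p53 half-site was in Gadd45a alone of the 3, 40 bases before the start, and 8.36% of promoters held one.
Gadd45a: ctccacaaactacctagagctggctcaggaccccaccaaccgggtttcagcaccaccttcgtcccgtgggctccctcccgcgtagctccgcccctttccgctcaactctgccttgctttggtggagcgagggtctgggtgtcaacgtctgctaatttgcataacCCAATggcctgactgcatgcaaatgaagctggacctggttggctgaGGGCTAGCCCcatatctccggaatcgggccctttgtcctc
Gadd45b: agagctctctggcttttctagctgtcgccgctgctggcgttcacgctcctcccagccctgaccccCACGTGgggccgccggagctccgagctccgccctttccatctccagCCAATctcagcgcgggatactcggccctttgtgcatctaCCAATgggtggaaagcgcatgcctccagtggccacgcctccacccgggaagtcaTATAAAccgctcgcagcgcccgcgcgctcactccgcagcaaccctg
Gadd45g: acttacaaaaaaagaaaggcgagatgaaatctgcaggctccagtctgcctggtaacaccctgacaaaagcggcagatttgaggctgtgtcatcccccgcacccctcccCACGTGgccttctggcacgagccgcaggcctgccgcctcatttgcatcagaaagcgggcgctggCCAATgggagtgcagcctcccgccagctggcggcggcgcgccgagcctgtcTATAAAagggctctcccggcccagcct

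Btg2 read 0.87, 0.98 and 0.69 in B16-F1, against 2.08, 1.92 and 1.55 in D5.1G4. The lines did not overlap, and the difference of -1.01 (SE 0.17, 2.01-fold lower, adjusted p = 0.00628) also lay at the fold minimum. The call ended in 8 of 17 other settings: when B16-F1 replicate 3 (-0.93), D5.1G4 replicate 1 (-0.89) or D5.1G4 replicate 2 (-0.97) was left out, under normexp (-0.96), on the authors' values (-0.99), with scan as a block (-0.87), within scan 2 (-0.87) and without scan 1 (-0.98, adjusted p = 0.0906). Sfn, which encodes the cell cycle inhibitor 14-3-3 sigma, read -2.14, -1.59 and -1.82 in B16-F1, against -2.76, -3.08 and -3.24 in D5.1G4. It was higher on every B16-F1 array, by 1.18 (SE 0.19, 2.26-fold, adjusted p = 0.00558), and the call ended under normexp (0.93, adjusted p = 0.079) and without the arrays of scan 1, with 1 B16-F1 array left (0.89, adjusted p = 0.098). Its direction was thus opposite to that of the 4 growth arrest genes that fell.

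The other 6 arrest and stress targets were not called. Sesn1 had a difference of -0.67 (SE 0.17, adjusted p = 0.0284), with no overlap between the lines. Differences for the rest lay between -0.29 and 0.28, with adjusted p from 0.297 to 0.945. Ccng1, a standard p53 reporter that encodes cyclin G1 and carries a half-site above, read 3.85, 3.87 and 4.00 in B16-F1, against 4.01, 4.13 and 3.84 in D5.1G4. The lines overlapped, and the difference was -0.09 (SE 0.12, adjusted p = 0.623). Plk2, a polo-like kinase, had a difference of -0.29 (SE 0.20), and Zmat3, an RNA-binding zinc finger protein, -0.02 (SE 0.19) with D5.1G4 replicate 2 missing. Tigar, a fructose bisphosphatase that restrains glycolysis, had -0.20 (SE 0.14) with B16-F1 replicate 1 missing, and -0.45 on its dimmer second probe. The mean over both Tigar probes gave -0.43 (adjusted p = 0.0399). Trp53inp1, a stress protein that acts with p53, had 0.28 (SE 0.25) on the probe used and -0.60 on its dimmer second probe.

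**Figure D2:**
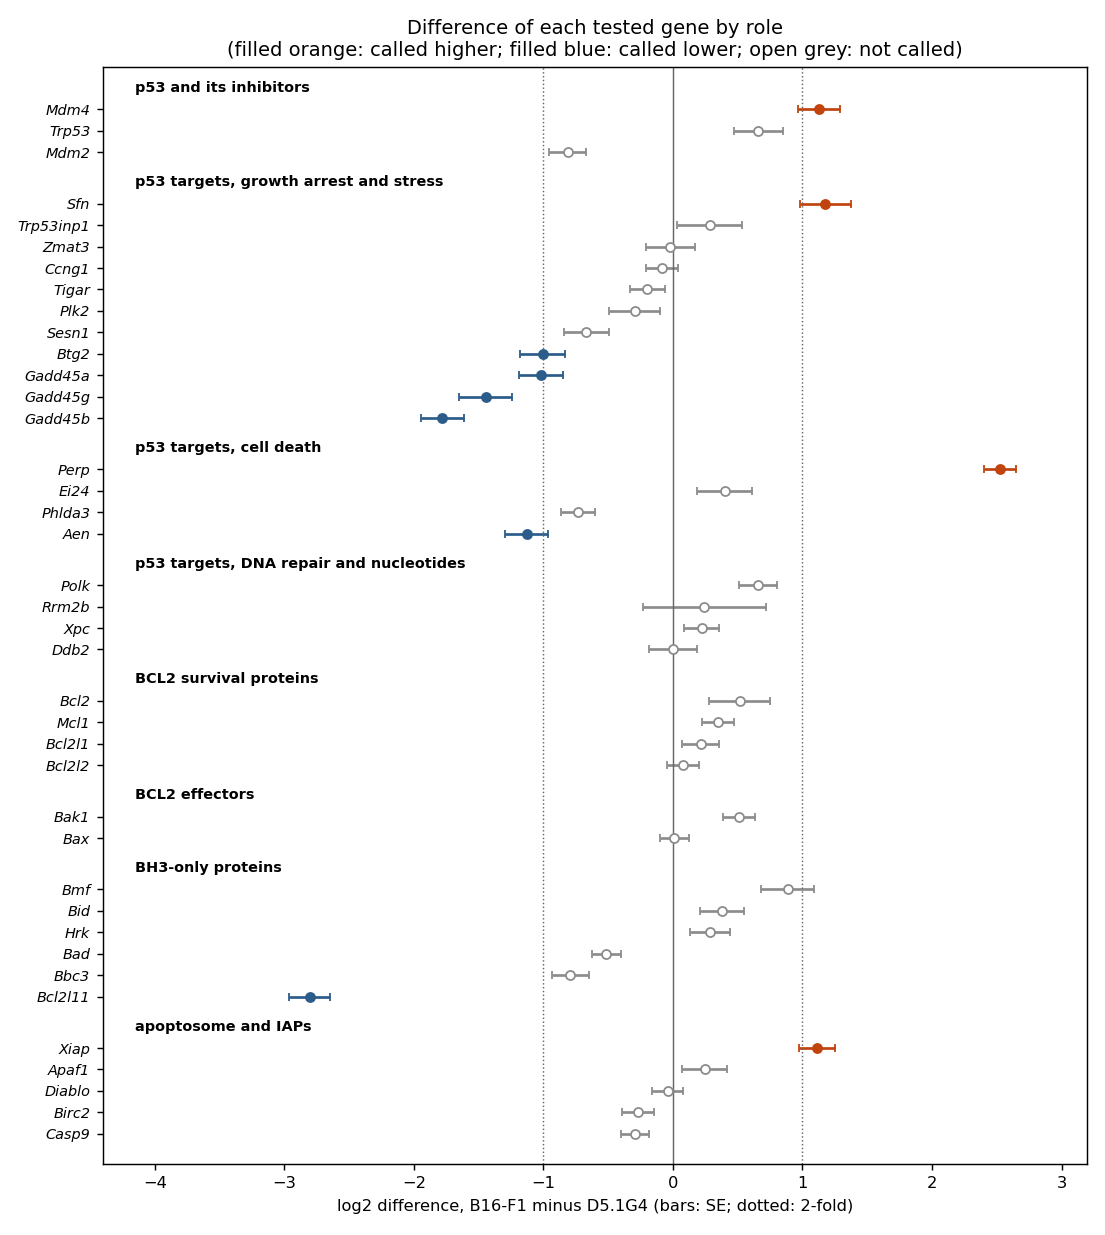
Difference of each of the 39 tested members, B16-F1 minus D5.1G4 in log2 units, with 1 SE either side, in order of role; filled points are called, and the dotted lines mark 2-fold. The growth arrest targets lie mostly left of 0, down to -1.78 for Gadd45b, the survival proteins all lie right of 0 and under 2-fold, and Perp lies farthest right at 2.53; the value of Bcl2l11 is fitted on B16-F1 signals not well above background.

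Cell death targets moved both ways: Perp rose, Aen fell and 2 of the 4 were not called. Perp, a membrane protein of desmosomes and a mediator of p53-dependent apoptosis, read -1.32, -1.25 and -1.40 in B16-F1, against -3.98, -3.67 and -3.89 in D5.1G4. The 6 arrays formed a tight set for each line, apart by 2.53 (SE 0.12, 5.76-fold, adjusted p = 7.3e-05). Its call held in 17 of 17 other settings, with differences of 1.74 to 2.61. Other filters, probe rules and outlier handling left its difference at 2.53, so the 17 are not independent checks. Aen, an apoptosis-enhancing nuclease, read 4.28, 4.25 and 3.99 in B16-F1, against 5.05, 5.55 and 5.31 in D5.1G4. It was lower on every B16-F1 array, by -1.13 (SE 0.17, 2.19-fold lower, adjusted p = 0.0038), and a second probe gave -1.08. The Aen call ended with quantile normalization (-0.93), on the authors' values (-0.93) and without scan 1 (-1.02, adjusted p = 0.0762).

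Phlda3, a repressor of AKT signalling, passed the adjusted p but not 2-fold, at -0.73 (SE 0.13, adjusted p = 0.00737). It read 3.76, 3.84 and 3.90 in B16-F1, against 4.65, 4.69 and 4.36 in D5.1G4, with no overlap. Ei24, a protein of the endoplasmic reticulum, had a difference of 0.40 (SE 0.21, adjusted p = 0.216), with D5.1G4 replicate 2 missing.

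None of the 4 repair and nucleotide targets was called. Polk, the translesion DNA polymerase kappa, came nearest at 0.65 (SE 0.15, adjusted p = 0.017), and a second probe gave 0.63. It read -0.22, -0.55 and -0.39 in B16-F1, against -1.23, -0.88 and -1.01 in D5.1G4, without overlap. Ddb2 and Xpc, which recognise ultraviolet damage for nucleotide excision repair, had differences of 0.00047 (SE 0.19) and 0.22 (SE 0.14). Rrm2b, the p53-induced subunit of ribonucleotide reductase, had the highest SE of the 39 tested members. It read -3.23, -2.71 and -2.73 in B16-F1, against -2.05, -3.83 and -3.52 in D5.1G4. D5.1G4 replicate 1 stood apart from the other D5.1G4 arrays, and the difference of 0.24 (SE 0.47, adjusted p = 0.721) was 0.79 without it (adjusted p = 0.0464).

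In the BCL2 family, 12 of the 15 listed genes were tested. Of these, 1 was called (8.33%, against 15.2% of all features), and the median difference was 0.25. The survival proteins bind and hold the effectors, and none of the 4 tested was called, although all 4 differences were positive. Bcl2 read -2.34, -2.73 and -2.08 in B16-F1, against -2.86, -3.23 and -2.60 in D5.1G4, overlapping in the middle of the range. Its difference was 0.51 (SE 0.23, adjusted p = 0.143). Mcl1, a short-lived survival protein, read 3.01, 2.90 and 2.84 in B16-F1, against 2.40, 2.67 and 2.63 in D5.1G4. Those values did not overlap, at 0.35 (SE 0.12, adjusted p = 0.0753), while a second Mcl1 probe gave -0.10. Bcl2l1, which encodes BCL-XL, had a difference of 0.21 (SE 0.14, adjusted p = 0.291). Bcl2l2, which encodes BCL-W, had 0.08 (SE 0.12, adjusted p = 0.653), and -0.56 on its dimmer probe.

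The effectors BAX and BAK form the pores in the outer mitochondrial membrane. Bax, itself a p53 target with a half-site above, read 3.15, 3.08 and 3.27 in B16-F1, against 3.10, 3.24 and 3.12 in D5.1G4. The lines overlapped throughout, and the difference was 0.01 (SE 0.11, adjusted p = 0.945). Bak1 read 1.85, 1.75 and 1.98 in B16-F1, against 1.42, 1.41 and 1.21 in D5.1G4. It was higher on every B16-F1 array, by 0.51 (SE 0.12, adjusted p = 0.0214), short of 2-fold.

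BH3-only proteins start the pathway, and 1 of the 6 genes tested was called lower in B16-F1. Bcl2l11, which encodes BIM, read -6.81, -7.05 and -6.79 in B16-F1, against -4.30, -3.84 and -4.10 in D5.1G4. Its probe stood well above background on no B16-F1 array and on 3 of 3 D5.1G4 arrays, so B16-F1 has only an upper bound. Bcl2l11 was at least 3.29-fold lower in B16-F1 (adjusted p = 0.00012). It entered the test only through D5.1G4, where it is high, and so had to differ, which makes that p no independent support. Such a bound sets the mean of the brighter line against, on each array of the other, the higher of the probe's own signal and the lowest signal well above background. Under normexp correction, which adds an offset to every signal, the difference was -0.54 with an adjusted p of 0.674.

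Of the other BH3-only genes, Bbc3, the p53 target that encodes PUMA, read 1.04, 1.26 and 1.16 in B16-F1, against 1.93, 1.75 and 2.16 in D5.1G4. The lines did not overlap, and the difference of -0.79 (SE 0.15, adjusted p = 0.00809) was short of 2-fold. Bmf, a factor freed by loss of attachment, read 0.05, 0.42 and 0.01 in B16-F1, against -1.07, -0.64 and -0.47 in D5.1G4. It was higher on all B16-F1 arrays, by 0.89 (SE 0.20, adjusted p = 0.0178), and passed 2-fold, at 1.01, without D5.1G4 replicate 3. Bad, which growth factor signalling restrains by phosphorylation, had a difference of -0.52 (SE 0.11, adjusted p = 0.0151) and 0.11 on its dimmer probe. Bid, which caspase-8 cleaves, had 0.38 (SE 0.17, adjusted p = 0.141), and Hrk 0.29 (SE 0.15, adjusted p = 0.199). Pmaip1, the p53 target that encodes NOXA, and Bik were not well above background on any array and were not tested.

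**Figure D3:**
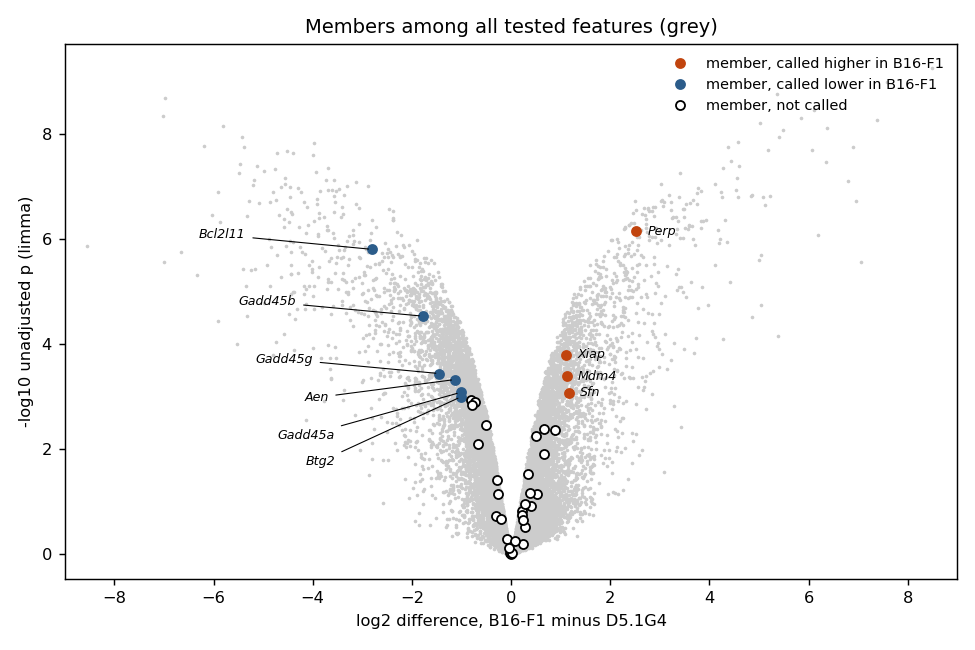
Difference (B16-F1 minus D5.1G4, log2 units) against -log10 of the unadjusted limma p for all 18442 tested features in grey, with the 39 members in colour or outlined. The 10 called members are named and lie inside the range of all features, with Perp at 2.53; the place of Bcl2l11 is fitted on B16-F1 signals not well above background, where the measurable bound is 3.29-fold.

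After the mitochondria, Xiap rose and no other of the 5 tested apoptosome and IAP genes was called. Xiap, on chromosome X, encodes the IAP that binds and blocks caspases directly. It read 2.37, 2.14 and 2.12 in B16-F1, against 1.28, 1.02 and 1.00 in D5.1G4. The lines lay apart by 1.11 (SE 0.14, 2.16-fold, adjusted p = 0.00184), and the call held in 17 of 17 other settings, with differences of 1.03 to 1.36. For Xiap too, other filters, probe rules and outlier handling left the difference unchanged at 1.11. Diablo, which encodes the mitochondrial protein SMAC that displaces XIAP from caspases, overlapped between the lines, at -0.04 (SE 0.12, adjusted p = 0.818) and 0.53 on its dimmer probe. Casp9, the initiator caspase, read 1.18, 1.07 and 1.02 in B16-F1, against 1.47, 1.38 and 1.30 in D5.1G4, at -0.29 (SE 0.11, adjusted p = 0.0897). Apaf1, the apoptosome scaffold, had a difference of 0.24 (SE 0.18, adjusted p = 0.335) with B16-F1 replicate 1 missing. Birc2, which encodes the signalling ligase cIAP1, had -0.27 (SE 0.12, adjusted p = 0.145), and Birc3 never stood well above background and was not tested.

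Probes of 1 gene did not always give the same sign. Of 8 members with a second probe well above background on at least 3 arrays, Aen, Polk and Tigar had the same sign on both, and the other 5 (Bad, Bcl2l2, Diablo, Mcl1 and Trp53inp1) did not. None of those 5 was called. The brighter probe stood for the gene, and the other was the dimmer in every case.

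**Figure D4:**
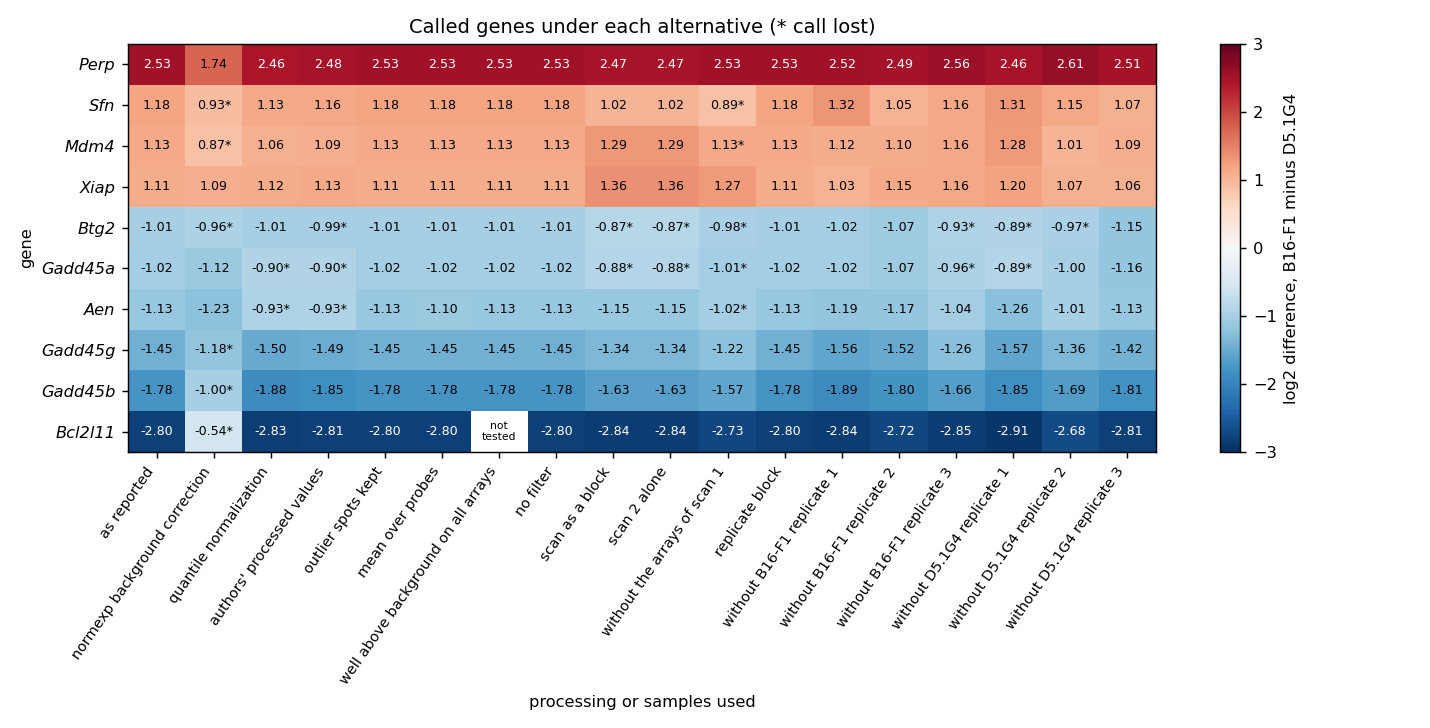
Difference of the 10 called members (rows) under each setting (columns), B16-F1 minus D5.1G4 in log2 units as number and colour; a star marks a setting in which the call was lost. No difference changes sign, Bcl2l11 is not tested in 1 setting, Perp and Xiap keep their call in all settings, and Gadd45a and Btg2 lose theirs in the most.

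Other genes of the pathway were taken from lists of 67 genes that are no members, of which 57 were tested. They were called at a rate close to that of all features, 15.8% against 15.2%, with 4 that rose and 5 that fell in B16-F1. Of 21 other p53 targets tested, 3 rose and 3 fell (28.6% called). The best known, Cdkn1a, which encodes the cell cycle inhibitor p21, was not called. It read 3.45, 3.38 and 3.53 in B16-F1, against 3.21, 3.30 and 3.15 in D5.1G4, at 0.24 (SE 0.11, adjusted p = 0.143).

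The 2 death receptors of that list differed in opposite directions. Tnfrsf10b, the TRAIL receptor, read 1.26, 1.17 and 1.20 in B16-F1, against -2.56, -4.20 and -4.18 in D5.1G4. It rose by 4.86 (SE 0.45, adjusted p = 0.000686), with D5.1G4 replicate 1 above the other D5.1G4 arrays. Fas, the receptor of FAS ligand, read -4.54, -4.80 and -5.71 in B16-F1, against -1.63, -2.00 and -1.88 in D5.1G4. It fell by 3.18 on the log2 scale (SE 0.31, adjusted p = 0.000857), and normexp gave -1.69 with an adjusted p of 0.112.

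Ak1, an adenylate kinase, fell by 2.61 on the log2 scale (SE 0.15, adjusted p = 0.000131). Gdf15, a stress-induced cytokine, fell short of well above background throughout B16-F1 and was at least 22.8-fold lower there (adjusted p = 0.000317). Sesn2, a sestrin like Sesn1, rose by 1.32 (SE 0.38, adjusted p = 0.0405). Settings in which its call ended include normexp (1.18, adjusted p = 0.114) and scan 2 alone, where the difference of 0.76 was short of 2-fold. Its adjusted p was also above 0.05 without B16-F1 replicate 2 (1.16), B16-F1 replicate 3 (1.09), D5.1G4 replicate 2 (1.28) or D5.1G4 replicate 3 (1.14). Cgref1, a cell growth regulator, was well above background in B16-F1 alone and at least 1.03-fold higher there (adjusted p = 0.00208), a bound short of 2-fold. Under normexp Cgref1 was 0.73 with an adjusted p of 0.49, and Gdf15 was -2.42 with an adjusted p of 0.0625. Both genes entered the test only through the line where they are high, so their p is no independent support.

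Of 16 other p53 regulators tested, 1 was called: Chek2, a DNA damage kinase that phosphorylates p53. It read -1.01, -1.24 and -0.28 in B16-F1, against -2.69, -2.60 and -2.64 in D5.1G4, at 1.80 (SE 0.25, adjusted p = 0.0031). With scan as a block its difference was 1.61 and its adjusted p 0.0602. Cdkn2a, whose ARF product restrains MDM2, did not stand well above background on any of the 6 arrays. Of 5 other BCL2 family genes tested, Bok, an effector relative of BAX, fell by 1.94 on the log2 scale (SE 0.29, adjusted p = 0.00363), and normexp gave -0.80 with an adjusted p of 0.429.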

How the data were processed

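Each array held 43020 spots other than controls. The authors deposited scanner output with a linear intensity per spot, made with Agilent Feature Extraction 11.0.1.1 and already corrected for background within the array, per the file headers. The deposited flags (0 or 1) mark spots well above background, saturated or outlying, per the file headers. For 22147 probes the authors also deposited processed values, in log2 units, by a normalization that the sources used here do not name.

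Processed intensities were put on the log2 scale, the array's 75th percentile was subtracted, and spots marked as outliers (0.67% to 1.58% of each array) were left out. No spot was saturated. Accessions were matched to the RefSeq gene table of GRCm38.p6: 27234 of 39429 probes (69.1%) matched 1 gene. The 12195 unmatched probes were kept as features of their own, so shares of all features are not shares of genes. The array's annotation is on mm9, so RefSeq served only for names, chromosomes and promoter sequences. The probe with the highest mean stood for a gene. The lines were compared with limma 3.58.1 in R 4.3.3 (lmFit, eBayes), 2-sided, with no term but the line and n = 3 arrays a line. The call rule, 2-fold with a p of 0.05, follows the series text, with the p adjusted here. Precision is limited by the number of arrays: the median SD of a tested member was 0.14 in B16-F1 and 0.19 in D5.1G4.

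Alternatives were normexp (offset 50, on the median signal, since no mean signal was at hand), quantile normalization, the authors' values, other filters and probe rules, scan as a block, scans left out, a replicate block and each array left out. Arrays were grouped by the scan time in their headers. The fit was tested on simulated data. The text names every member, up to 4 called genes of each pathway list with the largest difference, and Cdkn1a, Fas, Tnfrsf10b and Cdkn2a. The values of 1 pathway gene that this rule took are not reported here. Members and lists were chosen with earlier results of these data known, so their counts are descriptions. Promoters of the other 8 members are not analysed here.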

Additional observations from a re-analysis of the deposited data

How the results depend on the processing

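Among the 10 called members, Perp and Xiap kept their call in all 17 alternatives tried, and no difference of the 10 changed direction in any setting that tested it (17 for 9 of them, 16 for Bcl2l11). The alternatives are not independent checks, since some of them left the differences of Perp and Xiap unchanged. Under normexp calls in B16-F1 were 551 higher and 720 lower (1271 features, or 6.89%). They included 4 of 39 tested members (2 and 2) and 5 pathway genes (2 and 3). On the authors' values 7 of 39 members were called, 3 of them lower, against 15% of features. With scan as a block 8 of 39 members were called, against 14.2% of features, and 2 pathway genes were called higher. Without the arrays of scan 1, which leaves 1 B16-F1 array, the calls of Mdm4, Gadd45a, Btg2, Sfn and Aen ended. By adjusted p alone 6434 features (34.9%, 2671 higher and 3763 lower), 19 of 39 members (8 and 11) and 26 pathway genes (12 and 14) passed. Leaving out each array in turn gave 2530 to 3375 features (1040 to 1714 higher, 1490 to 1666 lower), or 13.7% to 18.3%. Members called were 8 to 11 of 39 (4 to 5 higher, 4 to 6 lower), and pathway genes 7 to 9 (3 to 5 higher, 4 to 5 lower). The causes were not tested. The median over all features moved to -0.15 with scan as a block, within scan 2 or without scan 1, and to -0.17 with no filter.

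Replicate numbers did not pair the arrays: deviations of same-numbered arrays correlated at -0.39, -0.03 and -0.30, and no array correlated best with its own number. With a replicate block 2580 features (14%), the same 10 of 39 members and 8 pathway genes were called.

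There were 27 changes of sign, in 8 members, none called, the largest 0.25 with the lowest adjusted p 0.251. They were Bcl2l2 (-0.017) and Bax (-0.090) under normexp; Ccng1 (0.048), Zmat3 (0.022) and Ddb2 (-0.046) under quantile normalization; and Ccng1 (0.045), Zmat3 (0.20) and Ddb2 (-0.026) on the authors' values. Zmat3 was 0.13 with outlier spots kept. The mean over probes gave Trp53inp1 -0.16, Bcl2l2 -0.24 and Diablo 0.25. Scan as a block and scan 2 alone gave Zmat3 0.21 and Bax -0.029, and without scan 1 Rrm2b was -0.095 and Bax -0.0046. With each array left out, the ranges were -0.15 to 0.11 for Ddb2, -0.11 to 0.0065 for Diablo, -0.039 to 0.054 for Bax, -0.28 to 0.24 for Zmat3 and -0.11 to 0.79 for Rrm2b.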
